A study of Homo sapiens with 6 samples.

Results

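The transcripts of 10 human genes that write, copy, read or remove DNA methylation were followed in 7R, a sunitinib-resistant derivative of 786-O by its labels, and in 786-O cells. The genes were DNMT1, DNMT3A, DNMT3B, UHRF1, UHRF2, TET1, TET2, TET3, TDG and MBD2, taken by symbol from a table of 54261 gene rows, and 10 of 10 had a row. 786-O is an established clear-cell renal carcinoma line without functional VHL, and sunitinib is an inhibitor of the VEGF and PDGF receptor kinases. The resistant group was 7R (titled Sun-7R, 3 libraries) and the control group was 786-O (titled Sun-7C, 3 libraries), both grown in culture. Nothing in the labels tells if drug was in the medium at harvest, if 7R is 1 clone, or if each library is a separate culture. The p-values therefore rest on library-to-library spread alone, which can be purely technical. In RNA from a whole culture, fewer cells of a kind and less RNA per cell cannot be told apart.

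DNA methylation in human cells is placed mainly on cytosines that precede a guanine (CpG). DNMT3A and DNMT3B methylate unmarked sites, while DNMT1, guided by UHRF1 to newly copied DNA, restores the mark on the daughter strand after replication. The TET enzymes oxidise methylcytosine with iron and alpha-ketoglutarate, TDG excises the further oxidised bases so that base excision repair can restore a plain cytosine, and MBD2 binds methylated CpG and recruits the NuRD repressor complex. Loss of TET activity and of its product hydroxymethylcytosine is a known feature of many tumours, kidney cancer among them.

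DNMT1 and UHRF1 were the members with lower levels in 7R, and in dividing cells both are known to be transcribed most in S phase under E2F factors. The promoter windows of the members (300 bases, 250 before and 50 after each RefSeq start, build GRCh38.p14) were therefore searched for an E2F-type motif, spelled TTTCCCGC, TTTGGCGC, TTTCGCGC or TTTGCCGC on either strand, and for CCAAT on either strand. All 10 genes matched the RefSeq table, with 21 windows. An E2F-type motif was present in the 1 window of DNMT1 and in 2 of the 3 windows of UHRF1, and in no window of the other 8 genes, while 3.32% of all 35116 windows of this length hold it. CCAAT is found in 34.6% of all windows. None of these matches overlapped a CCAAT match, a GC box (spelled GGGCGG, in 44.95% of windows) or a TATA match (spelled TATAAA, in 11.5%; 0 overlaps). A match in letters is a description and not a binding site, and other spellings were not searched. The E2F-type motif was chosen with the lower DNMT1 and UHRF1 levels known, and its part in them was not tested. Each of its spellings holds a CpG, and the share given is over all windows, not over windows equally rich in CpG. The windows below are the 3 that hold an E2F-type match and the only DNMT3B window that was listed, which has none. The other UHRF1 window, without an E2F-type or CCAAT match, is not shown. Capitals mark E2F-type and CCAAT matches, read 5′ to 3′ on the gene's strand.
DNMT1, chr19:10194904-10195203, minus strand: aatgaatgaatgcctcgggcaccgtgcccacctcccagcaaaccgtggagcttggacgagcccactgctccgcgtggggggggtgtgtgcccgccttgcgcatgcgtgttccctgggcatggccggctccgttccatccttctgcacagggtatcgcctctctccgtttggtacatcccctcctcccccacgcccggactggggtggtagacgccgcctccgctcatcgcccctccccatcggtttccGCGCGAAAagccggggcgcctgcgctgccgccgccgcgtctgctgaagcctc
UHRF1 start 1, chr19:4909251-4909550, plus strand: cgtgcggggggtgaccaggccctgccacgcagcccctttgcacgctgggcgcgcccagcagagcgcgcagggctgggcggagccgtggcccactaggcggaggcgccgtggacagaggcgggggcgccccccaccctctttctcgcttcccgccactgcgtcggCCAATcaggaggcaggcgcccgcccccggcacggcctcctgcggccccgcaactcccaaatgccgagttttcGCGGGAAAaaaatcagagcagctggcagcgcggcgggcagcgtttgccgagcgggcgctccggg
UHRF1 start 2, chr19:4909894-4910193, plus strand: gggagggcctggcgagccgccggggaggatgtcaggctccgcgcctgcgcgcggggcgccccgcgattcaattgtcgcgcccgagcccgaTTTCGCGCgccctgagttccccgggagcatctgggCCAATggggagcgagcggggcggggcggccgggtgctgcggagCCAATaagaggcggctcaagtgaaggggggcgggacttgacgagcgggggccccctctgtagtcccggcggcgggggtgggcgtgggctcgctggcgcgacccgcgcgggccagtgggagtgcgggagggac
DNMT3B, chr20:32779602-32779901, plus strand: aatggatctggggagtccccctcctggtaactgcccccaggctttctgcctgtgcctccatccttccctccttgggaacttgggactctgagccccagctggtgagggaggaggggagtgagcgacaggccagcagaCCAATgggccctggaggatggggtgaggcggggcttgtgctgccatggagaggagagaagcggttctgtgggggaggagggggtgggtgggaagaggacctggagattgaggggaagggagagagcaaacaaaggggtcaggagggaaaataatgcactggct
The match of DNMT1 lies across its annotated start. The number of CpG per window overlapped between lower and higher genes. The windows of DNMT1 and UHRF1 held 30 to 46 CpG, those of DNMT3A 18 to 46, those of TET3 33 and 45, and that of MBD2 32. The median over all human windows was 14. The only DNMT3B window listed held 3 CpG, the fewest of the 21 windows. Other starts of DNMT3B were not searched, so this window need not stand for its main promoter.

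Total counts were 37919629 to 38131634 in the resistant libraries and 48264905 to 52221491 in the control libraries. Levels are given as CPM, counts scaled to library size with edgeR's TMM factors, and fold changes are resistant over control from edgeR's quasi-likelihood test with Benjamini-Hochberg adjustment over 16642 tested genes. Of all tested genes 39.3% were called higher and 36.9% lower at an adjusted p under 0.05, together 76.2%, so a call alone is common in this comparison. Scaled by library size alone, 47.2% were higher and 28.4% lower. Fold change fell with the GC content of the transcripts (Spearman's rho -0.69 across 14212 genes, which are not independent replicates). Genes were therefore also tested after a trend on GC content and length was removed from each library, with GC content and length taken as the median over a gene's GENCODE 29 basic transcripts or, as a choice made after seeing the data, from its longest one. Resistant replicate 1 stood apart within its line: chi-square divided by its degrees of freedom came to 62.9 and 60.1 when it was set against replicates 2 and 3, to 8.94 between those, and to 12.4 to 35.5 between control libraries. Libraries of 1 line also differed along GC content: the log2 difference between resistant replicates 1 and 2 had a Spearman's rho of 0.59 with GC content across genes, that between resistant replicates 1 and 3 of 0.54, and that between control replicates 1 and 3 of -0.57.

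All 10 members passed the filter on low counts. Of these, 7 were higher in 7R, where 39.3% of tested genes were, 2 were lower, where 36.9% of tested genes were, and TET1 did not pass the test. The 9 calls stand beside a background of 76.2% called genes, so their number is not by itself particular to these genes. Over the 10 genes the median log2 fold change was 0.34, against 0.05 over all tested genes. Resistant and control libraries did not overlap for 9 of the 10, as for 80.3% of all tested genes. Adjusted for GC and length, 7 were again higher and 2 lower, where 33.9% and 33.1% of 14212 tested genes were, but DNMT1 was no longer called and TET1 was called lower. With the longest transcript, 5 were higher and 2 lower, where 33.7% and 33.1% of genes were. Without control replicate 2 and without adjustment, 4 were higher and 2 lower, where 36.1% and 34.9% of 17136 tested genes were, since DNMT3A, TET3 and MBD2 no longer passed.

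**Figure D1:**
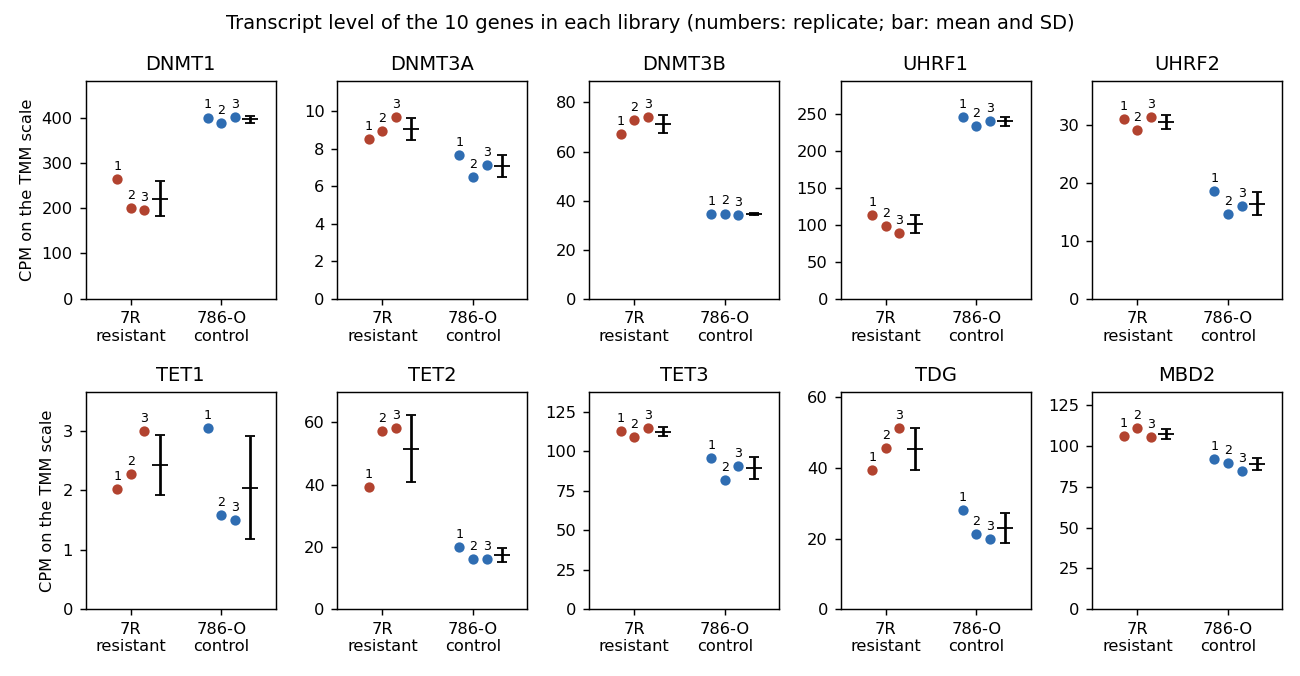
CPM on the TMM scale (vertical axes from 0, 1 panel per gene) in each resistant and control library, with replicate numbers; the bar beside each group is its mean and SD. DNMT1 and UHRF1 sit lower in every 7R library than in every 786-O library, TET1 overlaps, and the other 7 genes sit higher in every 7R library.

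Among the maintenance genes, DNMT1, the enzyme that copies methylation at replication, had 265, 201 and 196 CPM in resistant libraries, against 401, 388 and 401 CPM in control libraries. The groups did not overlap, and resistant replicate 1 lay nearest to the control libraries. Its log2 fold change was -0.84 ± 0.12 (SE, n = 3 each, edgeR adjusted p = 4.76e-05), which is a level 1.80 times lower in 7R. DNMT1 transcripts have a GC content of 55.8%, and the tested genes in the same decile of GC content had a median log2 fold change of -0.96, so the decrease was no larger than that of genes of like composition. Adjusted for GC and length it was -0.11 ± 0.08 (edgeR adjusted p = 0.282), with overlapping groups, and -0.07 ± 0.08 with the longest transcript (edgeR adjusted p = 0.497). Without resistant replicate 1 the adjusted value was -0.22, which passed the test, so that library decided the adjusted call. S1PR2, which overlaps DNMT1 on the same strand in GENCODE 29, had 491 counts over the 6 libraries and DNMT1 between 8328 and 18161 in each.

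UHRF1, the ubiquitin ligase that recognises sites methylated on a single strand and brings DNMT1 there, had 114, 98.7 and 89.5 CPM in resistant libraries, against 246, 234 and 241 CPM in control libraries. The groups were far apart, with no overlap. The log2 fold change was -1.26 ± 0.11 (SE, edgeR adjusted p = 9.07e-07), a level 2.39 times lower in 7R. With a GC content of 57.4% UHRF1 falls in the same decile as DNMT1 (median -0.96). It stayed lower after adjustment, by -0.31 ± 0.07 (edgeR adjusted p = 0.00278) and by -0.50 ± 0.07 with the longest transcript (edgeR adjusted p = 9.20e-05), so most of the unadjusted decrease was removed with the GC and length trend. DNMT1 counts were 2.19 ± 0.147 times those of UHRF1 in resistant libraries and 1.65 ± 0.0189 times in control libraries (SD, n = 3 each), a ratio that any scaling of a library leaves as it is.

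UHRF2, a relative of UHRF1 with the same domains that does not replace it in maintenance in mouse cells, went the other way. It had 31.0, 29.1 and 31.3 CPM in resistant libraries, against 18.6, 14.7 and 15.9 CPM in control libraries, with no overlap. The log2 fold change was 0.90 ± 0.12 (SE, edgeR adjusted p = 2.72e-05), 0.63 ± 0.09 adjusted for GC and length, and 0.40 ± 0.09 with the longest transcript (edgeR adjusted p = 0.00235). UHRF2 counts were 0.306 ± 0.0396 of those of UHRF1 in resistant libraries and 0.0681 ± 0.00669 in control libraries. After adjustment the ratio was 0.200 ± 0.0201 in resistant and 0.104 ± 0.00826 in control libraries. The groups did not overlap in either form, which follows from the opposite, non-overlapping changes of UHRF2 and UHRF1. UHRF1 remained the more abundant of the pair in 7R under each of these measures.

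Of the methyltransferases that act on unmarked DNA, DNMT3B rose, while DNMT3A passed the test without adjustment only narrowly. DNMT3B had 67.0, 72.7 and 73.9 CPM in resistant libraries, against 34.7, 34.7 and 34.3 CPM in control libraries. Every resistant library lay far above every control library, and the control libraries hardly differed among themselves. This is a 2.06-fold higher level, a log2 fold change of 1.04 ± 0.10 (SE, edgeR adjusted p = 2.08e-06). DNMT3B has a GC content of 54.2%, in a decile of genes whose median log2 fold change was -0.64, and it rose further after adjustment, to 1.66 ± 0.09 and, with the longest transcript, 1.75 ± 0.09 (edgeR adjusted p = 4.93e-08). It was called higher in all 24 fits that were run.

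DNMT3A, the other such enzyme, was low, with 8.51, 8.97 and 9.68 CPM in resistant libraries, against 7.67, 6.47 and 7.11 CPM in control libraries. These ranges lie close together without overlap. The log2 fold change of 0.35 ± 0.15 was just past the threshold (SE, edgeR adjusted p = 0.0453) and was called in 7 of 14 fits without GC adjustment; leaving out control replicate 1, 2 or 3, or resistant replicate 2 or 3, gave an edgeR adjusted p of 0.0678 to 0.227. Against a median of -0.96 for genes of like GC content (55.4%), it was 1.11 ± 0.14 after adjustment and 0.84 ± 0.14 with the longest transcript (edgeR adjusted p = 2.16e-04). DNMT3L, the cofactor of DNMT3A and DNMT3B in germ cells, had 0 counts in each library, which allows up to 0.0662 to 0.0706 CPM per library (3 counts, counting error only).

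Among the TET enzymes, TET2 had the largest change of the 10 genes without adjustment, with 39.2, 57.3 and 58.2 CPM in resistant libraries, against 19.98, 16.1 and 16.2 CPM in control libraries. Resistant replicate 1 was again nearest to the control libraries, with no overlap. The log2 fold change was 1.56 ± 0.16 (SE, edgeR adjusted p = 3.06e-06), a 2.96-fold higher level. Genes of like GC content (41.7%) had a median of 1.13, and adjusted for GC and length TET2 was higher by 0.38 ± 0.09 (edgeR adjusted p = 0.00252), or by 0.71 ± 0.11 with the longest transcript. Its antisense gene TET2-AS1 had 19 counts over the 6 libraries.

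TET3, the most abundant TET gene here, had 113, 109 and 115 CPM in resistant libraries, against 95.7, 81.9 and 90.8 CPM in control libraries, with no overlap. The increase was 0.33 ± 0.10 on the log2 scale (SE, edgeR adjusted p = 0.0106), and without control replicate 2 it was 0.22 and did not pass (edgeR adjusted p = 0.140). At a GC content of 57.3%, where the median of genes was -0.96, the adjusted value was 1.10 ± 0.08 and, with the longest transcript, 0.62 ± 0.07 (edgeR adjusted p = 2.24e-05). TET3 thus lay above genes of like GC content, while its own unadjusted increase was small.

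TET1, the family member best known from embryonic stem cells, had the lowest level of the 10 genes, with 87, 97 and 127 counts in resistant libraries, against 134, 69 and 68 counts in control libraries. This is 2.01, 2.27 and 2.99 CPM in resistant libraries and 3.04, 1.59 and 1.501 CPM in control libraries, and the highest value was that of control replicate 1, so the groups overlapped. The log2 fold change of 0.24 ± 0.31 did not pass (SE, edgeR adjusted p = 0.480). TET1 transcripts have a low GC content (41.0%, median of like genes 1.13), and the adjusted value was -0.97 ± 0.27 (edgeR adjusted p = 0.00717), or -0.82 ± 0.27 with the longest transcript (edgeR adjusted p = 0.0184), so its direction depends on the adjustment.

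TDG, the glycosylase that completes TET-driven demethylation, had 39.4, 45.7 and 51.3 CPM in resistant libraries, against 28.0, 21.2 and 19.96 CPM in control libraries, with no overlap. Its log2 fold change came to 0.98 ± 0.15 (SE, edgeR adjusted p = 7.53e-05) and 0.55 ± 0.11 adjusted for GC and length (edgeR adjusted p = 9.68e-04). With the longest transcript, whose GC content is 39.5% rather than 44.3%, it was 0.02 ± 0.09 and did not pass (edgeR adjusted p = 0.835). Reads of TDG may be shared with its pseudogene TDGP1, whose counts were 3.62% ± 0.655 of those of TDG in resistant libraries and 2.63% ± 0.840 in control libraries (SD, n = 3 each).

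MBD2, the methyl-CpG reader, had 106, 111 and 105 CPM in resistant libraries, against 92.01, 89.3 and 84.6 CPM in control libraries. The ranges did not overlap, and the log2 fold change was 0.28 ± 0.10 (SE, edgeR adjusted p = 0.0209), called in 8 of 14 fits without GC adjustment. Leaving out control replicate 1, 2 or 3 or resistant replicate 2 gave an edgeR adjusted p of 0.0577 to 0.138. The median length over its transcripts is 1237 bases and the median GC content 61.3%, each taken separately. The longest transcript has 5188 bases and 45.8% GC. The adjusted value was 1.601 ± 0.11 with the median over transcripts and -0.014 ± 0.06 with the longest (edgeR adjusted p = 0.863), so the direction of MBD2 is not set by these data once GC content is considered.

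**Figure D2:**
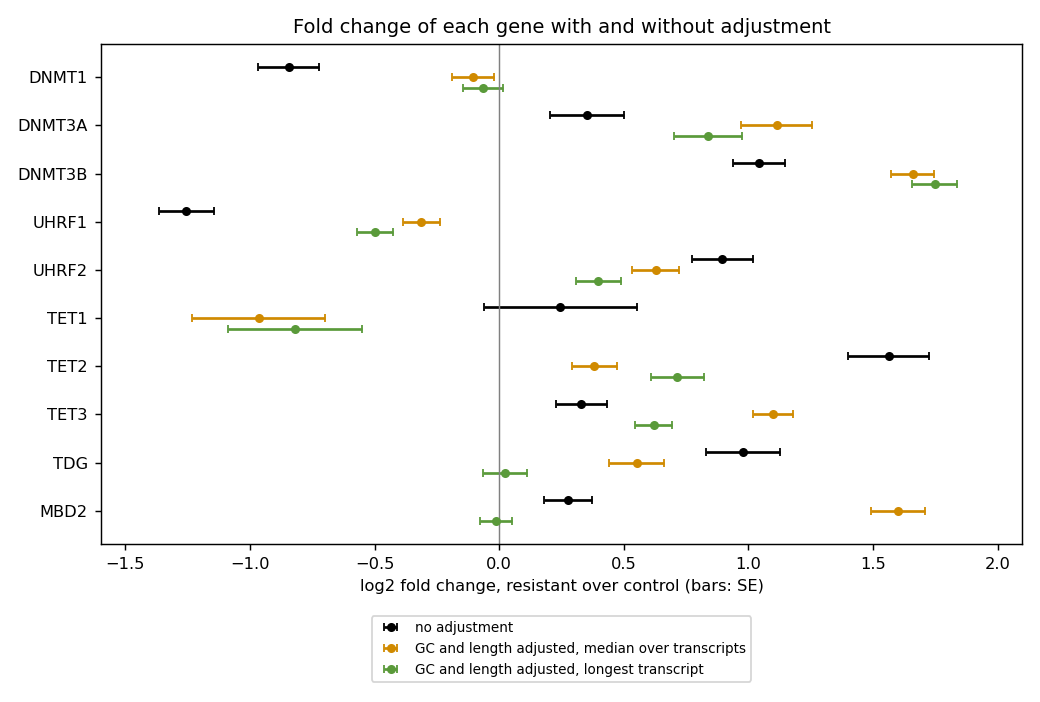
Log2 fold change (horizontal axis, resistant over control, bars SE) of each gene without adjustment, with GC and length adjusted on the median over transcripts, and with both taken from the longest transcript. DNMT3A, DNMT3B, UHRF2, TET2 and TET3 lie above 0 and UHRF1 below 0 under each choice, while DNMT1, TDG and MBD2 come close to 0 under at least 1 adjustment and TET1 changes side.

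Under the 3 measures, with all libraries, DNMT3A, DNMT3B, UHRF2, TET2 and TET3 were called higher and UHRF1 lower each time, 6 of the 10 genes. The share of all tested genes called under all 3 was not counted, so this number has no background. Single fits called 76.2% of genes without and 67.0% after GC and length adjustment. DNMT3A was called in 7 of 14 fits without GC adjustment, and TET3 in 13 of 14. DNMT1, TDG and MBD2 were called without adjustment and lost the call under at least 1 choice of transcript, and TET1 was called only after adjustment. The plot of fold change against GC content takes the median over transcripts. It shows DNMT3B, DNMT3A, TET3 and MBD2 above the genes of their own composition, TET1 below, and DNMT1 close to them. For MBD2 this rests on that choice, since its adjusted value with the longest transcript was -0.014 ± 0.06.

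**Figure D3:**
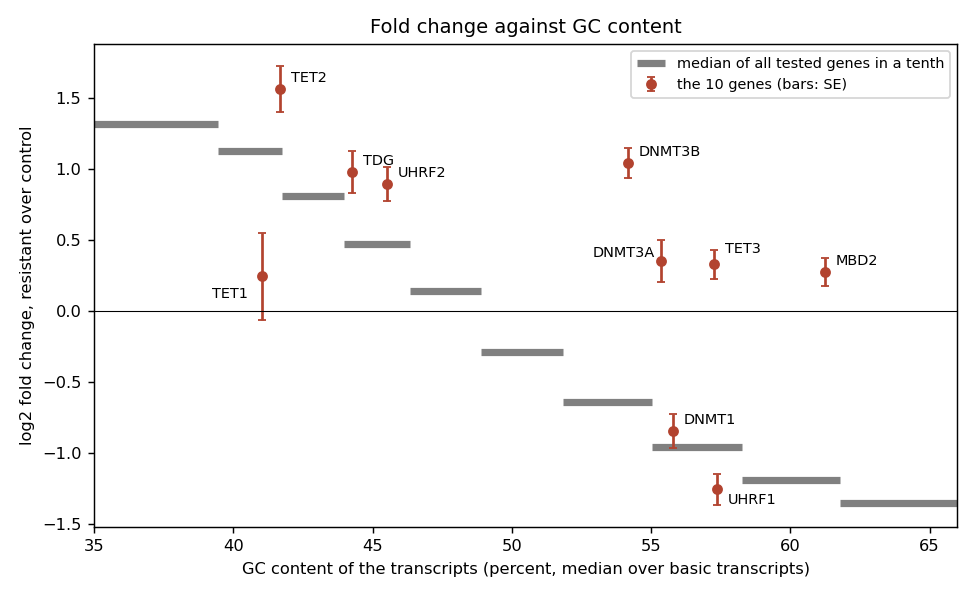
Log2 fold change (vertical axis, resistant over control, bars SE) of the 10 genes against the GC content of their transcripts in percent (horizontal axis); grey segments are the median of all tested genes in each decile of GC content, drawn over its range. The medians run down to -1.35 in the decile of highest GC content, and DNMT3B at 54.2% GC stands at 1.04 above a segment at -0.64.

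The balance between DNMT3B and DNMT1 and between UHRF2 and UHRF1 differed between the lines with and without adjustment, without overlap of the groups. That of TET2 and TET3 depended on the adjustment. Without adjustment the lack of overlap follows from the single genes, since DNMT3B and UHRF2 were higher and DNMT1 and UHRF1 lower without overlap. For UHRF2 and UHRF1 it also follows after adjustment on the median over transcripts. It adds no separate result, and the share of other gene pairs without overlap was not counted. Per kilobase of transcript, DNMT3B made up 23.6%, 30.3% and 31.0% of the summed DNMT1, DNMT3A and DNMT3B level in resistant libraries, against 9.73%, 10.1% and 9.65% in control libraries. DNMT1 made up 72.9%, 65.4% and 64.3% in resistant libraries, against 87.8%, 87.8% and 88.0% in control libraries, and remained the main methyltransferase transcript in each. Resistant replicate 1 had the smallest shift. DNMT1 and DNMT3B are close in GC content, and the ratio of DNMT3B to DNMT1 counts was 0.330 ± 0.0677 in resistant and 0.0872 ± 0.00209 in control libraries without adjustment (SD, n = 3 each). Adjusted, it was 0.315 ± 0.0633 in resistant and 0.0913 ± 0.00195 in control libraries, and with the longest transcript 0.321 ± 0.0651 in resistant and 0.0898 ± 0.00186 in control libraries. With 3 libraries against 3 an exact permutation test cannot give a two-sided p below 0.1, and no test was run on these ratios.

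TET2 made up 22.6%, 30.6% and 29.7% of the TET level per kilobase in resistant libraries, against 14.8%, 14.2% and 13.1% in control libraries, with TET3 making up most of the rest. TET2 and TET3 differ in GC content, and the direction of their ratio followed the adjustment. The ratio of TET2 to TET3 counts was 0.459 ± 0.0980 in resistant and 0.195 ± 0.0151 in control libraries (SD, n = 3 each). Adjusted, it was 0.231 ± 0.0125 in resistant and 0.381 ± 0.0223 in control libraries, the opposite direction, and with the longest transcript the groups overlapped at 0.307 ± 0.0414 in resistant and 0.288 ± 0.00756 in control libraries.

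**Figure D4:**
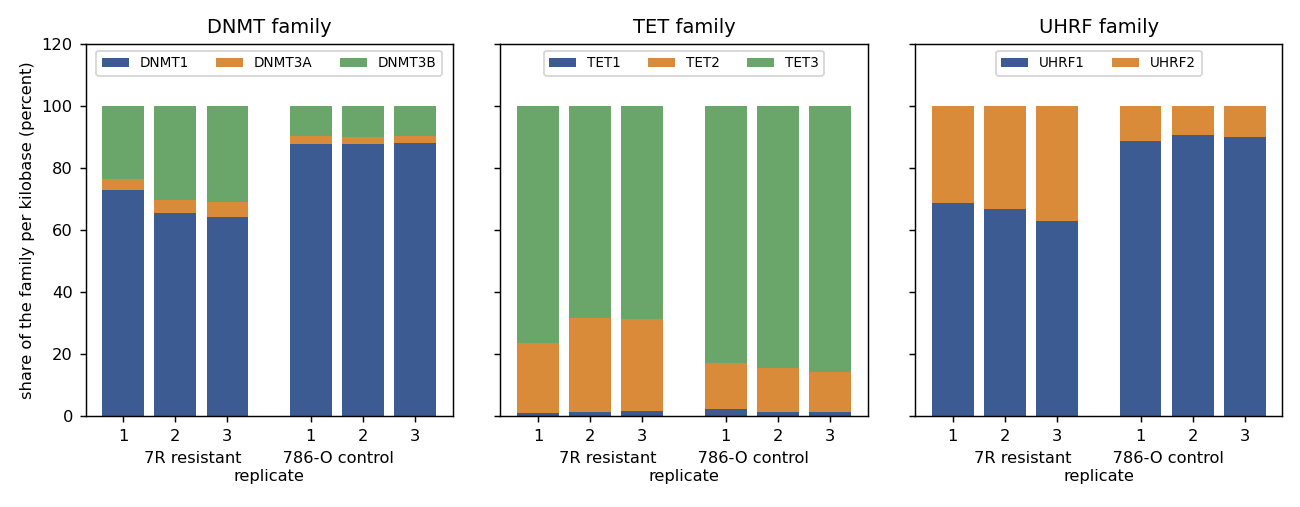
Share of each family member in the summed level of its family (vertical axis, percent, levels per kilobase of median transcript length) in each resistant and control library. DNMT3B takes 23.6% to 31.0% of the DNMT level in 7R and 9.65% to 10.1% in 786-O, and UHRF2 takes a larger share of the UHRF pair in every 7R library.

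On the scale of CPM per kilobase of median transcript length, MBD2 had the highest level in resistant libraries (86.7 ± 2.47, SD, n = 3), followed by DNMT1 (41.6 ± 7.23), TDG (28.4 ± 3.71), UHRF1 (28.2 ± 3.41), DNMT3B (17.2 ± 0.8997), UHRF2 (14.3 ± 0.559), TET3 (13.6 ± 0.338), TET2 (5.33 ± 1.11), DNMT3A (2.52 ± 0.163) and TET1 (0.261 ± 0.0546). In control libraries the order was DNMT1 (74.7 ± 1.40), MBD2 (71.7 ± 3.01), UHRF1 (67.4 ± 1.59), TDG (14.4 ± 2.70), TET3 (10.8 ± 0.845), DNMT3B (8.34 ± 0.0581), UHRF2 (7.71 ± 0.935), DNMT3A (1.97 ± 0.168), TET2 (1.80 ± 0.228) and TET1 (0.220 ± 0.0932). Ranges overlapped between TDG and UHRF1 and between UHRF2 and TET3 in 7R. In 786-O they overlapped between DNMT1 and MBD2, MBD2 and UHRF1, DNMT3B and UHRF2, and DNMT3A and TET2. Within each 786-O library DNMT1 still lay above MBD2, MBD2 above UHRF1 and DNMT3A above TET2. UHRF2 lay above TET3 within each 7R library. The order of TDG and UHRF1 in 7R, and of DNMT3B and UHRF2 in 786-O, changed between libraries. No test was run on this order. Per kilobase of the longest transcript DNMT1 came first in both lines, at 40.8 in 7R and 73.3 in 786-O, with UHRF1 next and MBD2 after it, at 20.7 in 7R and 17.1 in 786-O.

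The partners of these enzymes moved in both directions, as did all tested genes. The shares over all genes were 39.3% higher and 36.9% lower, or 33.9% and 33.1% after GC and length adjustment. Scaled by library size alone they were 47.2% and 28.4%. These shares are the background for this list and for each list below. Of 18 genes that help maintain or target methylation, 14 were tested and 5 were higher and 9 lower (median log2 fold change -0.48), and after GC and length adjustment 4 were higher and 8 lower (median -0.20). HELLS, the remodeller that opens chromatin to DNA methyltransferases, was higher at 1.501 ± 0.12 (log2, SE, edgeR adjusted p = 5.73e-07; adjusted for GC and length 0.29). TRDMT1, which methylates transfer RNA despite its likeness to the DNA enzymes, was higher at 1.41 ± 0.15 (adjusted for GC and length 0.39), and NSD1, which sets the histone mark read by DNMT3A, at 0.78 ± 0.11 (0.36). LIG1, the replication ligase that recruits UHRF1, was lower at -1.42 ± 0.12 (edgeR adjusted p = 5.73e-07; adjusted for GC and length -0.23), TRIM28, the corepressor of zinc finger proteins, at -1.76 ± 0.15 (-0.36), and CXXC1, which binds unmethylated CpG, at -1.40 ± 0.13 (-0.11, no longer called). NSD2 was counted under its older symbol WHSC1. DNMT3L, DPPA3, ZFP57 and EHMT2 were listed at 0 in each library; EHMT2 is broadly expressed in human cells, so its 0 is given only as listed.

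Of 9 other proteins that read methylated CpG, 9 were tested, with 4 higher and 5 lower (median -0.40), and 6 higher and 2 lower after GC and length adjustment (median 0.48). Scaled by library size alone, 4 were higher and 3 lower. ZBTB38 and ZBTB33, zinc finger readers, had log2 fold changes of 1.78 ± 0.13 and 1.89 ± 0.19 (SE; adjusted for GC and length 1.10 and 0.75), and MBD5 of 1.02 ± 0.13 (0.03, no longer called). ZBTB4 and MBD3 had -1.32 ± 0.10 and -1.76 ± 0.14 (adjusted for GC and length -0.42 and -0.26), while MBD1 was lower at -0.64 ± 0.10 without adjustment and higher at 0.48 with it.

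The NuRD complex, which MBD2 recruits, had 13 tested genes of 13, with 2 higher, 6 lower and 5 not called (median -0.20; 5 higher and 4 lower when scaled by library size alone), and 4 higher and 5 lower after adjustment (median -0.11). The deacetylase HDAC2 and the subunit MTA3 were higher, with log2 fold changes of 1.07 ± 0.13 and 0.59 ± 0.11 (0.22 and 0.37 after adjustment). MBD3, MTA1 and MTA2 were lower at -1.76 ± 0.14, -1.39 ± 0.12 and -1.15 ± 0.11 (adjusted for GC and length -0.26, -0.11 and -0.32, MTA1 no longer called).

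Of 18 TET partners and base excision repair genes, 15 were tested, with 4 higher and 9 lower (median -0.53), and 5 higher and 5 lower after adjustment (median -0.10). OGT, the sugar transferase that binds TET2 and TET3, was higher at 385 ± 3.55 CPM in 7R and 132 ± 11.9 CPM in 786-O (SD, n = 3 each), a log2 fold change of 1.54 ± 0.10 (SE, edgeR adjusted p = 1.67e-07; adjusted for GC and length 0.88). GADD45A, a stress-induced protein linked to demethylation, was higher at 0.59 ± 0.11 (adjusted for GC and length 1.44), while its relative GADD45B was lower at -1.80 ± 0.14 (-0.70). The uracil glycosylase UNG was lower at 27.9 ± 3.81 CPM in 7R and 78.7 ± 3.15 CPM in 786-O (SD; log2 fold change -1.498 ± 0.12, adjusted for GC and length -1.10), and CXXC5 at -1.23 ± 0.10 (-0.10, no longer called). CXXC4, which binds TET2 and has been linked to its loss as a protein in mouse cells, had 154 counts over the resistant and 1 over the control libraries, a ratio of 159 on the TMM scale (exact 95% interval 28.1 to 6324, counting error only). CXXC4 is among the higher genes counted above, but it passed the filter on low counts through the resistant libraries alone. It could only be called higher or not at all. LIG3 (-0.02 ± 0.10) and POLB (0.0094 ± 0.16) did not pass, and POLB was lower at -0.98 after adjustment.

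Of 19 genes that supply the methyl donor or the cofactors of TET enzymes, 17 were tested, with 7 higher and 7 lower (median -0.05), and 5 higher and 3 lower after adjustment (median 0.04). IDH1, the cytosolic enzyme that makes alpha-ketoglutarate, was higher at 118 ± 23.9 CPM in 7R and 37.2 ± 3.901 CPM in 786-O (SD, n = 3 each), a log2 fold change of 1.67 ± 0.15 (SE, edgeR adjusted p = 1.24e-06; adjusted for GC and length 0.93). Its mitochondrial relatives IDH2 and IDH3G were lower at -1.08 ± 0.10 and -1.31 ± 0.12, and neither was called after adjustment (-0.02 and 0.04). The methionine cycle genes MTR and MTRR had 0.82 ± 0.12 and 1.04 ± 0.11, and AHCY, which clears the inhibitory product of methylation, had -0.95 ± 0.13; none of these was called after adjustment (0.08, 0.16 and -0.02). SLC23A2 (-0.21 ± 0.11) and MAT2B (-0.05 ± 0.11) did not pass without adjustment, while SLC23A2 and MAT2B were lower at -0.31 and -1.12 with it.

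**Figure D5:**
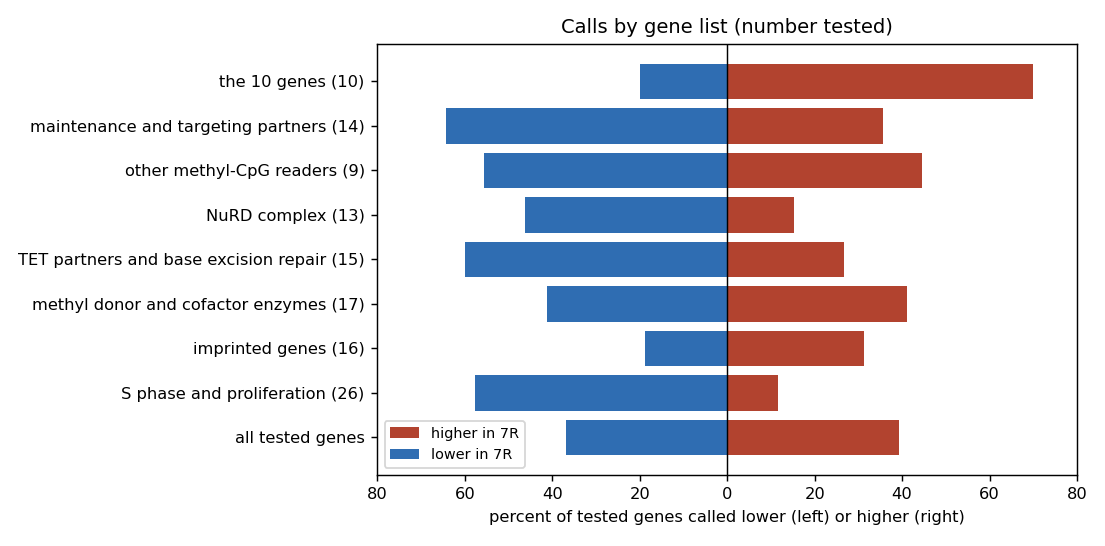
Percent of tested genes called lower (bars to the left) and higher (bars to the right) in 7R, for the 10 genes, 7 lists of related genes and all tested genes, with the number tested in parentheses. Of the 10 genes 7 lie to the right, while of 26 S phase and proliferation genes 15 lie to the left; all tested genes stand at 39.3% higher and 36.9% lower.

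DNMT1 and UHRF1 transcripts follow the cell cycle, so genes of S phase and proliferation were counted beside them. Of 26 tested, 3 were higher, 15 lower and 8 not called (median -0.63), and after GC and length adjustment 1 was higher and 21 lower (median -0.64). GINS2, a subunit of the replicative helicase, was lower at 22.4 ± 1.01 CPM in 7R and 90.7 ± 9.23 CPM in 786-O (SD, n = 3 each), a log2 fold change of -2.01 ± 0.12 (SE, edgeR adjusted p = 7.79e-08; adjusted for GC and length -1.93). CDT1 and MCM5, which license replication origins, had -2.47 ± 0.15 and -1.96 ± 0.15 (adjusted for GC and length -1.07 and -0.92). Against the list, TOP2A, POLA1 and RRM1 were higher at 1.42 ± 0.14, 1.15 ± 0.14 and 0.38 ± 0.11 (adjusted for GC and length 0.15, 0.29 and -0.17, of which POLA1 was still called). The summed level of the list was 3257 to 3500.5 CPM in resistant and 4874 to 5058 CPM in control libraries, and its part in the lower DNMT1 and UHRF1 levels was not tested. Scaled by library size alone 9 of the 26 were higher and 14 lower.

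Genes whose promoters are methylated in most adult cells were also counted, in a list chosen with earlier results of these data known. DNA methylation itself was not measured here. Of 30 germline genes known to be silenced in this way, 15 had 0 counts in each library and MAGEA1 was the only one with enough counts to be tested. It had enough in the resistant libraries alone, so it could only be called higher or not at all. MAGEA1, an X-linked cancer-testis antigen, had 7.63, 5.02 and 5.63 CPM in resistant libraries, against 0, 0.0230 and 0 CPM in control libraries. These are 784 counts over the resistant and 1 over the control libraries, a ratio of 810 on the TMM scale (exact 95% interval 145 to 32029.7, counting error only). The other 29 genes together had 71 counts in resistant and 123 in control libraries, and among them MAGEC2 had 14 counts in resistant and 1 in control libraries, while SSX1 had 1 in resistant and 31 in control libraries and MAGEA6 had 19 in resistant and 57 in control libraries; these 3 were chosen after their values were seen. Since members of the MAGEA family are nearly identical in sequence, their separate counts are uncertain.

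Of 25 imprinted genes, whose active copy is set by methylation, 16 were tested, with 5 higher, 3 lower and 8 not called (median 0.52), and 9 higher and 4 lower after adjustment (median 0.48). Scaled by library size alone, 8 were higher and 2 lower. KCNQ1OT1, the long RNA of the KCNQ1 imprinted region, was higher at 433 ± 106 CPM in 7R and 59.7 ± 13.6 CPM in 786-O (SD, n = 3 each), a log2 fold change of 2.86 ± 0.20 (SE, edgeR adjusted p = 2.38e-07; adjusted for GC and length 0.75). GRB10 was higher at 0.70 ± 0.10 (adjusted for GC and length 1.24). SNRPN was lower at -0.96 ± 0.11 (adjusted for GC and length -0.46), and PHLDA2 at -1.40 ± 0.57 on 23 counts in resistant and 63 in control libraries (-0.10, no longer called). PHLDA2 passed the filter on low counts through the control libraries alone. RB1, higher at 0.94 ± 0.14, was lower at -0.34 after adjustment, and GNAS, lower at -0.68 ± 0.09, was higher at 0.47. Without allele information these values do not show whether 1 or both copies were read.

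The extraction text of the labels names a brain region, so brain markers were counted. Of 12, 6 were tested, with 4 higher and 1 lower, GAD2, MOG and NEUROD6 were at 0 in each library, and MBP had the highest level. MBP was higher, as were SNAP25 (mean 12.9 CPM in 7R and 3.31 in 786-O) and SYT1 (2.29 and 0.405). AQP4 was also higher, with 46 counts over the resistant and 0 over the control libraries. It passed the filter on low counts through the resistant libraries alone, so it could only be called higher or not at all. GAD1 was lower (mean 1.86 CPM in 7R and 4.27 in 786-O). The summed level of the 12 was 53.1 to 60.3 CPM in resistant and 32.7 to 35.6 CPM in control libraries. Of 12 markers of blood, endothelial and fibroblast cells, 5 were tested, with 1 higher and 3 lower, PTPRC and CD3E were at 0 in each library, and the summed level was 30.6 to 53.5 CPM in resistant and 50.2 to 61.5 CPM in control libraries. The sum holds opposite changes. LUM, a proteoglycan of fibroblasts, was higher at 30.3 ± 12.4 CPM in 7R and 1.69 ± 0.149 CPM in 786-O (SD, n = 3 each). The macrophage genes CD68 and CSF1R were lower, CD68 at 9.23 ± 0.961 CPM in 7R and 42.0 ± 3.78 CPM in 786-O, and CSF1R at 0.800 ± 0.282 CPM in 7R and 6.94 ± 1.98 CPM in 786-O. All 12 renal tubule and 786-O markers had counts, with summed levels of 4002 to 4955 CPM in resistant and 13141 to 14342 CPM in control libraries, of which VIM was the highest. Among them 1 was higher and 8 were lower, and after adjustment 4 were higher and 5 lower. The part of these markers in the results above was not tested.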

How the data were processed

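RNA of 3 resistant and 3 control libraries was sequenced, and the authors deposited raw counts per gene symbol, 1 column per library (whole numbers, no normalization, per the file headers and values). HISAT2 2.0.4 was among the tools, per the submitters' processing notes. Not given in the sources used here: the counter, strand handling, build and gene models. Overlapping, antisense and near-identical genes may therefore hold each other's reads. Columns were matched to samples by title, with 0 columns left over.

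Genes passing edgeR 4.0.16's filterByExpr (16642 of 54261) were scaled by TMM (resistant libraries 1.12 to 1.14, control libraries 0.867 to 0.913) and compared with its quasi-likelihood test in R 4.3.3, Benjamini-Hochberg threshold 0.05, without covariates. The SE of a log2 fold change is its size divided by the root of the F statistic. GC content and length came from GENCODE 29 basic transcripts (85.4% of tested genes matched). Each library's log2 CPM deviation (prior count 1) was modelled by natural splines of GC content (df 6) and of log2 length (df 5), and the fitted trend entered the test as an offset, which takes out a true biological dependence on GC as well. DESeq2 1.42.0 was an alternative.

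Members, lists and motifs were chosen with earlier results of these data known. Named genes of a list are up to 3 called in each direction with the smallest p, and all without a call where these number 3 or fewer. Libraries of a line differed from each other by more than sampling noise (chi-square over df 8.94 to 62.9, using genes with 20 or more counts in the pair), and each was counted as its own sample. Intervals and floors cover counting error only. A few list genes are counted in their lists but not reported here by name.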

Additional observations from a re-analysis of the deposited data

How the results depend on the processing

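The 10 genes gave 7 higher and 2 lower calls with RLE and upper-quartile factors, library size alone, a filter of at least 1 CPM in 3 libraries and DESeq2, where 38.8% to 47.2% of all genes were higher and 28.4% to 40.6% lower. Without a low-count filter they gave 5 and 2, since DNMT3A (edgeR adjusted p = 0.125) and MBD2 (0.0741) no longer passed, where 24.8% and 22.6% of 28271 genes were called. With library size as the only scaling, the all-gene median log2 fold change was 0.39 in place of 0.05, with 7848 higher and 4721 lower calls against 6540 and 6143. Leaving out each replicate in turn gave 4 to 7 higher and 2 lower members. In these fits 35.9% to 38.8% of tested genes were higher (6179 to 6789 genes) and 33.8% to 36.6% lower (5894 to 6410 genes). With GC and length adjusted as well, leaving out each replicate gave 7 higher and 2 or 3 lower members. There 30.0% to 33.5% of genes were higher and 29.4% to 33.5% lower. The replicate numbers did not pair the libraries (correlations of deviations -0.35, -0.06 and -0.21). With the replicate block 5 members were higher and 2 lower, where 37.5% of tested genes were higher (6246 genes) and 35.2% lower (5851 genes).

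TET1 turned to lower in each fit with the GC adjustment, at -0.97 with GC and length, -0.74 with GC alone, -0.93 with the replicate block added, -0.82 on the longest transcript, and -1.09 to -0.66 with a replicate left out (-0.66, -1.07 and -1.09 without control replicates 1, 2 and 3, and -0.95, -0.87 and -1.07 without resistant replicates 1, 2 and 3). MBD2 turned to -0.014 on the longest transcript. DNMT1 was called in 1 of 10 fits with the GC adjustment. TET1 had the fewest counts of the 10 genes, 68 to 134 per library, which limits its precision.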

Other observations

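A few further genes had too few counts to be tested, and were picked after their values were seen. NEIL1, a glycosylase of oxidised bases, had 1 count over the resistant and 30 over the control libraries, a ratio of 0.0344 on the TMM scale (exact 95% interval 8.44e-04 to 0.207, counting error only). Among imprinted genes below the filter, PEG3 had 23 counts in resistant and 4 in control libraries, and ZDBF2 had 33 in resistant and 6 in control libraries.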
